A study of Mus musculus with 18 samples.

Results

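Endothelin signalling genes were followed across 6 groups of sorted mouse dermal cells, 3 Affymetrix Mouse Genome 430 2.0 arrays each. The 6 genes listed were the ligand genes Edn1, Edn2 and Edn3, the receptor genes Ednra and Ednrb, and Ece1, which encodes a converting enzyme. Of these, 5 had a probe set annotated with 1 gene symbol and were measured, among 18193 genes in all, and Ednra is not analysed here. The family was selected on earlier results of these arrays, in which Ednrb differed between EPF and ENF, and for each gene the probe set used was chosen by its highest mean over the 18 arrays. The overall levels and the Ednrb difference between EPF and ENF are therefore given as a description. The limma fit of all genes also covered Ednrb there, and nothing is read from its call.

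In the R26mTmG reporter, cells make a red fluorescent protein (RFP), and a cell in which Cre has acted makes a green one (GFP) instead, as do its descendants. EPF cells were GFP+ RFP- and ENF cells RFP+ GFP- cells of dorsal dermis from En1Cre; R26mTmG mice, labelled postnatal day 56. Oral cells came from oral mucosa and Cranial cells from cranial dermis of Wnt1Cre; R26mTmG mice. Ventral cells came from ventral dermis and Dorsal cells from dorsal dermis, both of En1Cre; R26mTmG mice. The cells of these 4 site groups were GFP+ RFP- and labelled postnatal day 30. The protocol text gives 30 days for the back skin of EPF and ENF, so their age is unsettled in the sources used here. All mice were untreated, and the gates removed cells positive for EpCAM, CD45, CD31 or Tie2, for a marker that the labels write Tie119, or for DAPI. En1Cre marks cells whose ancestors expressed Engrailed-1 and Wnt1Cre marks a lineage that includes the cranial neural crest, so each group holds what its lineage and gate let through. It is not stated whether animals were pooled, or whether the arrays of a group came from separate animals. P-values therefore measure only the spread between these arrays, which may be technical. Xist, which female cells express, measured 4.98 in ENF array 1 and 5.20 in EPF array 2. In the other EPF and ENF arrays it lay between 11.60 and 12.13, and in the site arrays between 10.48 and 11.48. The spread within EPF and within ENF is thus not only technical, and the sex of the animals was not tested.

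Endothelins are short peptides cut from longer precursors, first by furin-type proteases and then by endothelin-converting enzymes. They act on 2 G protein-coupled receptors, of which the A type prefers endothelin-1 and endothelin-2 while the B type, encoded by Ednrb, binds all of them and also clears the peptide. In the embryo, Edn1 signalling through the A receptor patterns the lower jaw, and Edn3 signalling through Ednrb is needed by melanocyte and enteric neuron precursors. In adult tissue endothelin-1 is a strong constrictor of vessels and stimulates fibroblasts to contract and to make matrix.

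Values are log2 expression after RMA (robust multi-array average), and each difference between groups is on the log2 scale with its SE from limma. The p-values were adjusted over all 18193 genes by Benjamini-Hochberg, and called means an adjusted p below 0.05. A group mean at or below the arrays' lower quartile, which lay between 3.93 and 4.10, is near background. Arrays without overlap are also given over all 18193 genes. In EPF minus ENF 1583 genes were higher and 1517 lower without overlap, and in Oral minus Cranial 2425 and 2287. These numbers were 2994 and 3457 in Cranial minus Dorsal, 4920 and 5073 in Cranial minus Ventral, and 2787 and 2697 in Oral minus Dorsal. The arrays formed 2 sets, with correlations across genes of 0.962 to 0.988 within EPF and ENF, 0.946 to 0.998 within the site groups and 0.872 to 0.926 between the sets. Labelled age, array set and cell source cannot be told apart between the sets, so EPF and ENF values stand beside the site values without a test. Within the site set, Oral and Cranial cells came from Wnt1Cre mice, and Ventral and Dorsal cells from En1Cre mice. Body site, Cre line and lineage cannot be told apart when Oral or Cranial is compared with Ventral or Dorsal. All 10 fibroblast markers lay above the lower quartile in every group. The 14 endothelial markers averaged 5.33 to 5.76 in the EPF arrays, 5.40 to 5.77 in ENF, 4.72 to 4.84 in Oral, 4.79 to 4.80 in Cranial, 5.04 to 5.14 in Ventral and 5.03 to 5.07 in Dorsal. Of these markers Tie1, Emcn and Sox17 were near background in every group, while Kdr averaged 8.38 ± 1.35 in EPF and 8.87 ± 1.27 in ENF, and Flt1 averaged 8.21 ± 0.73 in Ventral and 7.56 ± 0.50 in Dorsal. Tek, which encodes Tie2, averaged 10.20 ± 0.71 in EPF and 10.46 ± 0.49 in ENF although the cells were sorted as Tie2-negative, while its site means lay between 3.75 and 4.27 (SD of 3 arrays). In cell populations such as these, fewer cells of a type and less RNA per cell cannot be told apart.

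Edn1 was the endothelin gene with called differences in 3 of the 7 comparisons. Its promoter is shown because it is the member with the widest span across the body sites. The sequence is from RefSeq (GRCm38.p6, chr13:42301226-42301525, plus strand) and runs from 250 bases before the annotated start of the gene to the 50th base from it. The gene occupies chr13:42301476-42307990 in that annotation. Capitals mark a GATA-type TTATCT, which begins at base 9 from the start, and an AP-1-type TGACTNA, which begins at base 37.
Edn1 promoter: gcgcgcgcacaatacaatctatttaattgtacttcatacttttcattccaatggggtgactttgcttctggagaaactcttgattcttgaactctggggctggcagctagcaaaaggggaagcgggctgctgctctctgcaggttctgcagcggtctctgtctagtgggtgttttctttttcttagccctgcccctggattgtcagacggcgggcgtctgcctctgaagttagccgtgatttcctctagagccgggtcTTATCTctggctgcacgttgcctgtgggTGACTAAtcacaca
Both strands were searched, also for the TATA-type TATAAA, which was not in the Edn1 window. Sequence beyond the window was not searched, so a TATA-type match outside it is not excluded. Where transcription of Edn1 starts in these cells was not tested, and positions are counted from the annotated start only. Among 32851 mouse promoter windows of this length the GATA-type letters stood in 11.2%, the AP-1-type letters in 13.9% and the TATA-type letters in 13.6%. No marked match overlaps another. These matches describe letters in the window and do not show that a factor binds there.

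**Figure D1:**
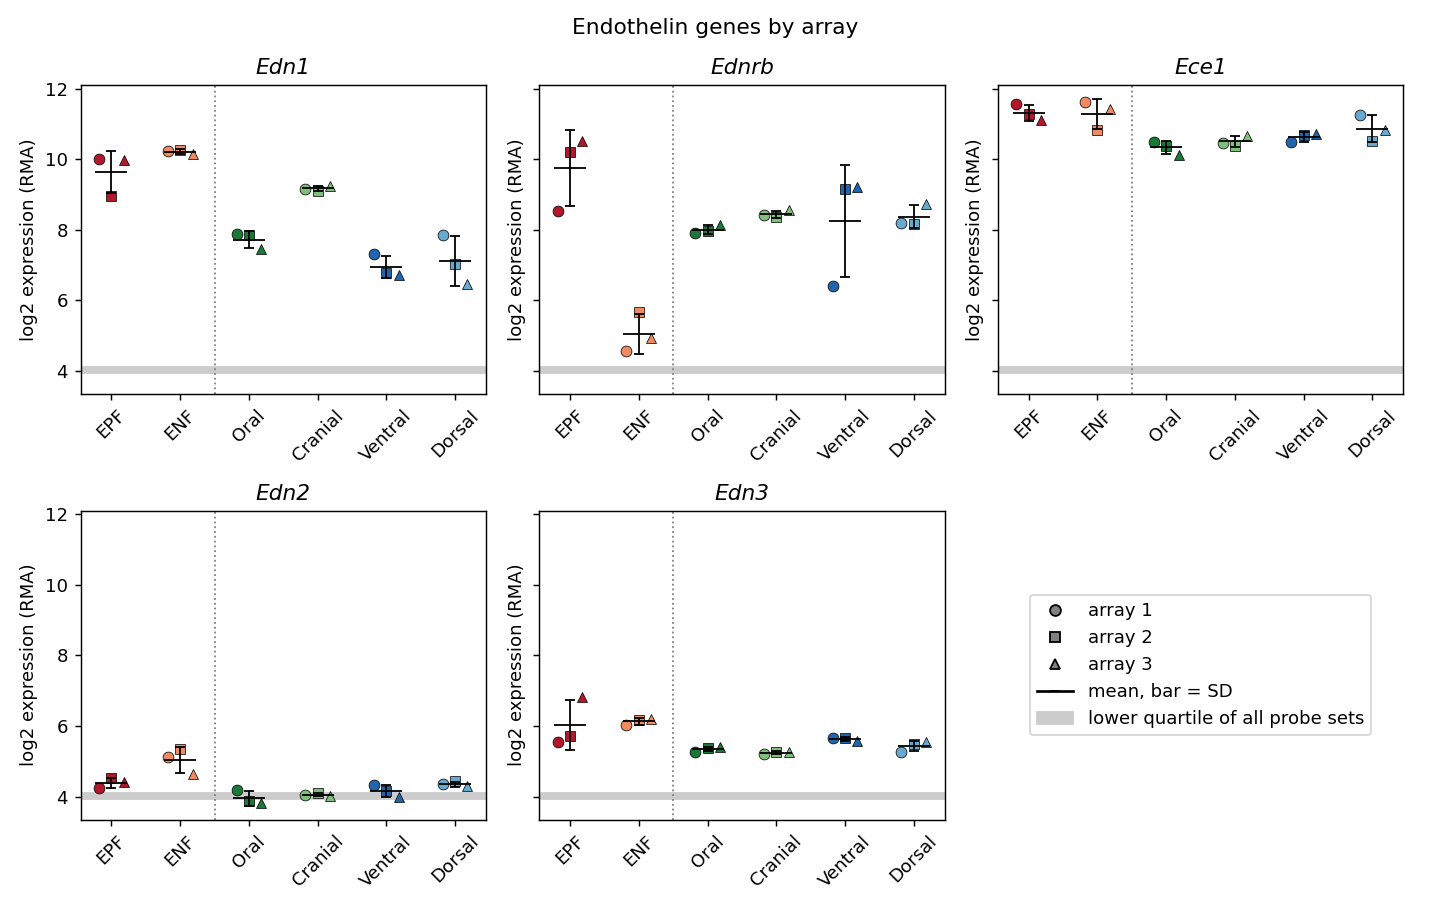
Log2 expression (RMA) of the 5 measured endothelin genes, 1 point per array, for EPF, ENF, Oral, Cranial, Ventral and Dorsal, with the group mean and SD. The dotted line separates the 2 array sets and the grey band is the range of the arrays' lower quartiles (3.93 to 4.10). Edn1 in the 3 Cranial arrays (9.10 to 9.24) lies above every Oral, Ventral and Dorsal array, and Ednrb in the 3 ENF arrays (4.55 to 5.66) lies below every other array.

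Counted by comparison, 1 of the 5 endothelin genes was called in EPF minus ENF (Ednrb), where 0.308% of all genes were called, and nothing is read from this count because Ednrb was chosen on that difference. In Oral minus Cranial 1 of 5 was called (Edn1), against 1.14% of all genes. In Cranial minus Dorsal 1 of 5 was called (Edn1), against 18.7% of all genes, a share close to the background. In Cranial minus Ventral 2 of 5 were called (Edn1 and Edn3), against 17.9%. limma called 0 of 5 in Oral minus Dorsal, against 16.8% of all genes, and 0 of 5 in Oral minus Ventral, against 14.6%, with 2 genes at an unadjusted p under 0.05 in each. It called 0 of 5 in Ventral minus Dorsal, against 0.0275%, with 0 at an unadjusted p under 0.05. The 6 site comparisons share arrays and are not independent.

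**Figure D2:**
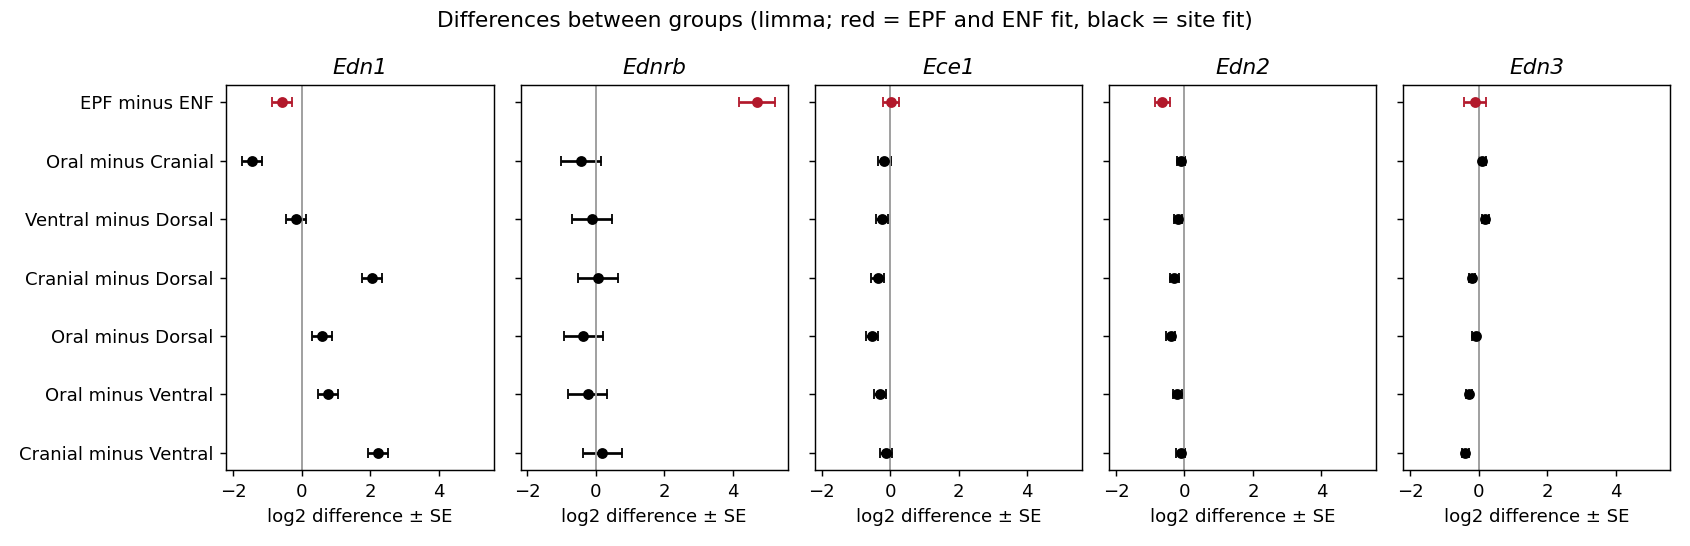
Log2 differences ± SE from limma for the 5 endothelin genes in the 7 comparisons, red for the fit of the EPF and ENF arrays and black for the fit of the site arrays. Edn1 is higher in Cranial than in Dorsal (2.06) and Ventral (2.23), and Ednrb differs most between EPF and ENF (4.70).

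Edn1, the ligand gene of endothelin-1, was highest among the site groups in Cranial. Cranial differs from Dorsal and Ventral in Cre line and lineage as well as in body site. Edn1 had 1 probe set, so no further one could check these values. It measured 7.87, 7.84 and 7.45 in the Oral arrays, 9.16, 9.10 and 9.24 in the Cranial arrays, 7.30, 6.78 and 6.73 in the Ventral arrays and 7.84, 7.03 and 6.46 in the Dorsal arrays. Every Cranial array lay above every other site array, while Ventral and Dorsal overlapped and Dorsal array 1 lay within the Oral range. Cranial was 4.17-fold above Dorsal (2.06 ± 0.29, SE, limma adjusted p = 0.00109). It was 4.71-fold above Ventral (2.23 ± 0.29, limma adjusted p = 0.000672). Edn1 was 2.74-fold lower in Oral than in Cranial (log2 difference -1.45 ± 0.29, limma adjusted p = 0.0432). Leaving out any 1 of the 6 Oral or Cranial arrays moved the size of that last difference little (-1.53 to -1.32) but raised its adjusted p to between 0.125 and 0.189.

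The lower part of the order was not resolved. Oral minus Ventral was 0.78 (95% interval 0.14 to 1.43, limma adjusted p = 0.103) and Oral minus Dorsal was 0.61 (-0.04 to 1.25, adjusted p = 0.19). Ventral minus Dorsal was -0.18 (-0.82 to 0.47, adjusted p = 0.885). The order of group means was thus Cranial, Oral, Dorsal and Ventral, with only Cranial separated from its neighbour.

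In dorsal dermis labelled postnatal day 56, Edn1 measured 9.99, 8.95 and 9.97 in EPF and 10.22, 10.27 and 10.13 in ENF. All EPF arrays lay below all ENF arrays, mostly through EPF array 2. The difference of -0.57 ± 0.28 (95% interval -1.23 to 0.09) was not called (limma adjusted p = 0.528). Without EPF array 2 the difference was -0.23. That array was low in Xist (5.20), and its 13 keratinocyte markers averaged 5.22. These markers averaged 7.79 and 6.60 in EPF arrays 1 and 3, and 7.40 to 9.42 in ENF. Their part in the Edn1 difference was not tested.

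Some markers of other cell types were, like Edn1, highest among the sites in Cranial, while others of the same lists were not. Abcc9 and Kcnj8, from the mural and smooth muscle list, were called higher in Cranial than in Dorsal and Ventral and lower in Oral than in Cranial. Abcc9 averaged 4.32 in Oral, 6.28 in Cranial, 4.42 in Ventral and 4.45 in Dorsal, and Kcnj8 averaged 5.14 in Oral, 6.65 in Cranial, 5.54 in Ventral and 5.43 in Dorsal. Perp, from the keratinocyte list, was called the same way, with 5.49 in Oral, 6.92 in Cranial, 4.73 in Ventral and 4.51 in Dorsal. Notch3, also from the mural and smooth muscle list, averaged 7.79 in Oral and 7.53 in Cranial.
Over the whole lists, 3 of 13 mural and smooth muscle markers were called higher and 0 lower in Cranial than in Dorsal. Of all genes, 18.7% were called there in either direction. In Cranial minus Ventral 3 of the 13 were called higher and 2 lower, Myh11 and Lmod1, against 17.9% of all genes. The mean of the 13 ran from 7.44 to 7.64 in the Oral arrays, 7.59 to 7.62 in Cranial, 7.45 to 8.13 in Ventral and 7.17 to 7.49 in Dorsal. Of 13 keratinocyte markers 1 was called higher and 3, Sfn, Krt14 and Krt1, lower in Cranial than in Dorsal, against 18.7% of all genes. Their means ran from 4.99 to 5.09 in Oral, 5.10 to 5.15 in Cranial, 5.15 to 5.17 in Ventral and 5.18 to 5.32 in Dorsal. Of these markers Trp63 and Cdh1 were near background in all 4 sites. Of 14 endothelial markers 0 were called higher and 2, Flt1 and Kdr, lower in Cranial than in Dorsal, against 18.7% of all genes. In Cranial minus Ventral 1, Tek, was called higher and 3 lower, Flt1 and Kdr among them, against 17.9%. The part of these cell types in the Edn1 differences was not tested.

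Immediate early genes, which are switched on within minutes by stress such as tissue dissociation, also differed between the sites. This list of 15 genes was added after values had been seen. Their mean level ran from 10.64 to 10.85 in Oral, 10.85 to 11.13 in Cranial, 9.50 to 9.55 in Ventral and 9.24 to 9.77 in Dorsal, and from 12.60 to 12.79 in EPF and 12.16 to 12.41 in ENF. Of the 15 genes, 12 were called higher in Cranial than in Dorsal, 11 in Cranial than in Ventral, 10 in Oral than in Dorsal and 10 in Oral than in Ventral, and limma called none between Oral and Cranial, Ventral and Dorsal, or EPF and ENF. These counts stand against 18.7%, 17.9%, 16.8% and 14.6% of all genes called in either direction in the 4 comparisons. The part of the immediate early response in the Edn1 differences was not tested.

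**Figure D3:**
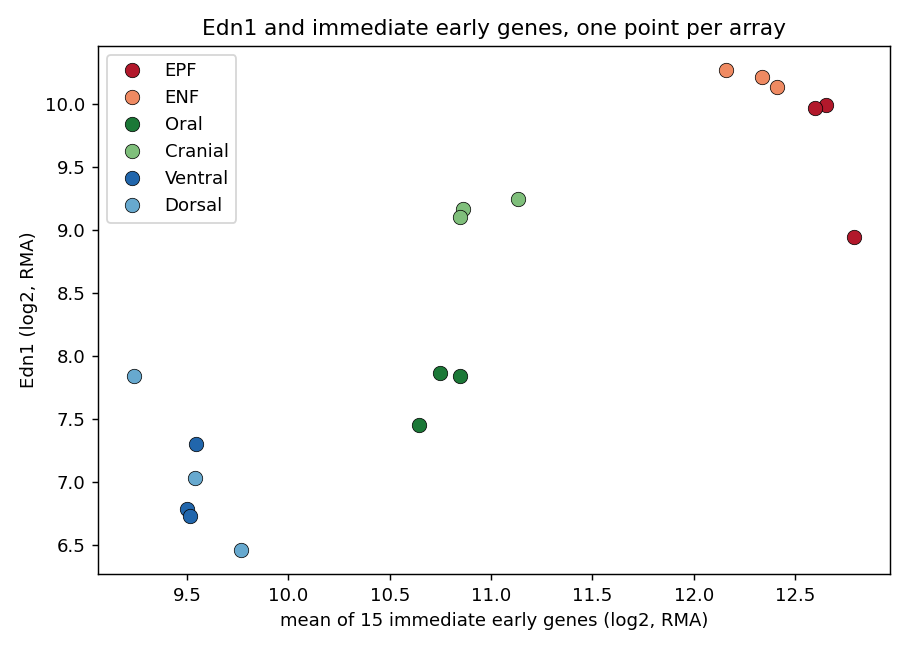
Edn1 (log2, RMA) against the mean of the 15 immediate early genes (log2, RMA), 1 point per array in the 6 groups. On the horizontal axis Oral runs from 10.64 to 10.85, Cranial from 10.85 to 11.13, Ventral from 9.50 to 9.55 and Dorsal from 9.24 to 9.77. There EPF runs from 12.60 to 12.79 and ENF from 12.16 to 12.41. On the vertical axis Oral runs from 7.45 to 7.87, Cranial from 9.10 to 9.24, Ventral from 6.73 to 7.30 and Dorsal from 6.46 to 7.84. There EPF runs from 8.95 to 9.99 and ENF from 10.13 to 10.27.

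Edn1 was the only measured endothelin gene whose site group means spanned at least 1 log2 unit, at 2.23, against 0.54 for Ece1, 0.43 for Ednrb, 0.40 for Edn2 and 0.39 for Edn3. Among 2392 other genes with such a span, the 5 closest to Edn1 over the 12 site arrays were Als2cl (Pearson r = 0.979), Vav3 (0.972), Tmem178 (0.953), Moxd1 (0.953) and Acot1 (0.952). Each of these 5 had its highest site mean in Cranial, as in Tmem178, which averaged 4.86 in Oral, 6.86 in Cranial, 4.32 in Ventral and 4.45 in Dorsal. Over the 6 EPF and ENF arrays the same genes had r of -0.27 for Als2cl, 0.18 for Vav3, -0.32 for Tmem178, 0.39 for Moxd1 and 0.77 for Acot1. These correlations describe arrays that share groups and processing.

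Edn2, the ligand gene of endothelin-2, was dim. It measured 4.24, 4.53 and 4.41 in EPF and 5.12, 5.36 and 4.64 in ENF, so that every EPF array lay below every ENF array. The difference of -0.65 ± 0.21 was not called (limma adjusted p = 0.326). In the sites its group means lay between 3.96 in Oral, which is near background, and 4.35 in Dorsal, and it was called in none of the 6 site comparisons. The nearest was Oral minus Dorsal (-0.40 ± 0.13, limma adjusted p = 0.0525).

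Edn3, the ligand gene that the B receptor needs in melanocyte precursors, was lower in cranial than in ventral dermis by a small amount. It measured 5.20, 5.27 and 5.25 in Cranial and 5.65, 5.66 and 5.58 in Ventral, with no overlap. Of all 18193 genes, 4920 were higher and 5073 lower without overlap in Cranial minus Ventral. The difference was -0.39 ± 0.10 (1.31-fold, limma adjusted p = 0.0214). Of its 3 further probe sets none was called there, with differences of -0.40, -0.22 and 0.00, and without any 1 of 5 of these 6 arrays the adjusted p was between 0.0536 and 0.081. Edn3 measured 5.27, 5.38 and 5.40 in Oral and 5.27, 5.50 and 5.53 in Dorsal, ranges that overlapped.
In EPF it measured 5.56, 5.70 and 6.83, spread on both sides of the 6.02, 6.17 and 6.19 of ENF (difference -0.10 ± 0.32, limma adjusted p = 0.948).

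Ece1, which encodes the enzyme that makes the active peptide from big endothelin, was bright in all groups and called in no comparison. It measured 11.55, 11.27 and 11.09 in EPF and 11.62, 10.81 and 11.41 in ENF, which overlapped (difference 0.02 ± 0.24, 95% interval -0.54 to 0.58). In the sites it measured 10.49, 10.38 and 10.11 in Oral, 10.45, 10.38 and 10.67 in Cranial, 10.47, 10.68 and 10.72 in Ventral and 11.26, 10.52 and 10.82 in Dorsal. The Oral arrays lay below the Dorsal arrays, with a difference of -0.54 ± 0.18 (limma adjusted p = 0.0672), but the second Ece1 probe set by mean level gave 0.13 there.

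Ednrb, the B receptor gene, had the largest difference of the 5 genes between EPF and ENF. It measured 8.52, 10.21 and 10.50 in EPF and 4.55, 5.66 and 4.92 in ENF. Every EPF array lay above every ENF array, and EPF array 1 lay well below the other EPF arrays. The difference was 4.70 ± 0.52, or 26.0-fold, and 2.10 with the mean of all probe sets of the gene. The SE is no test here, because the family was selected on this difference. The second Ednrb probe set by mean level measured 5.89, 6.70 and 7.74 in EPF and from 4.88 to 5.38 in ENF, also without overlap and with a smaller difference of 1.69. The third was near background in all 6 groups.

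In the body sites Ednrb was measured in every group, and no site comparison was called with the probe set used. It measured 7.90, 7.95 and 8.14 in Oral, 8.41, 8.35 and 8.55 in Cranial, 6.40, 9.14 and 9.20 in Ventral and 8.19, 8.16 and 8.74 in Dorsal. The 3 Oral arrays lay below the 3 Cranial arrays (-0.43, 95% interval -1.71 to 0.85, limma adjusted p = 0.981). The Ventral arrays fell on both sides of all other site arrays, and Ventral minus Dorsal was -0.12 (-1.40 to 1.16, adjusted p = 0.97), so the arrays do not show whether the receptor differs between them.

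The second Ednrb probe set gave another picture of the sites. It measured 5.37, 5.52 and 5.32 in Oral, 5.70, 5.47 and 5.66 in Cranial, 5.48, 7.43 and 7.23 in Ventral and 6.74, 6.43 and 6.93 in Dorsal. All Oral and Cranial arrays lay below all Dorsal arrays, and Ventral array 1 lay among them. With this probe set Ednrb was called lower in Oral than in Dorsal (-1.30, limma adjusted p = 0.0475) and in Oral than in Ventral (-1.31, adjusted p = 0.0499), where the probe set used gave -0.36 and -0.25 without a call. Cranial minus Dorsal was -1.09 (adjusted p = 0.0826) and Cranial minus Ventral -1.10 (adjusted p = 0.0794). The probe sets thus disagree on whether Ednrb differs between these sites, and the cause was not tested.

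Ventral array 1 was low in Ednrb by both bright probe sets, with 5.48 in the second probe set against 7.43 and 7.23 in the other Ventral arrays. Without that array Ednrb was called lower in Oral than in Ventral (-1.17, limma adjusted p = 0.00233), where it had been -0.25 with it. Cranial minus Ventral likewise turned to -0.73 (adjusted p = 0.0235), against 0.19 with it. In the same array the 10 fibroblast markers averaged 11.41, against 12.22 and 12.19 in Ventral arrays 2 and 3. Its 13 mural and smooth muscle markers averaged 8.13 against 7.45 and 7.52, and its 12 dermal papilla markers 6.43 against 7.07 and 7.17. Their part in the low Ednrb value was not tested.

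**Figure D4:**
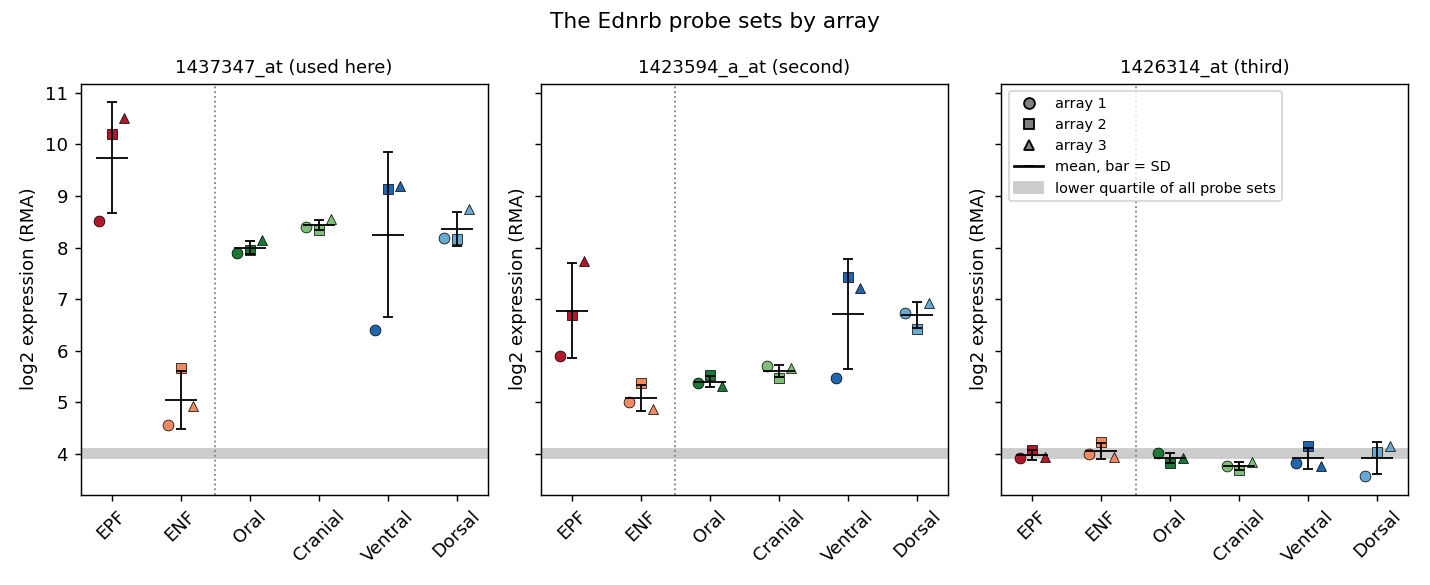
Log2 expression (RMA) of the Ednrb probe set used here and of the second and the third by mean level, 1 point per array in EPF, ENF, Oral, Cranial, Ventral and Dorsal, with mean and SD. Ventral array 1 is low in the probe set used here (6.40) and in the second (5.48), and the third lies near the grey band of lower quartiles in all groups.

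Markers of other cell types were set beside the EPF and ENF difference. The 13 mural and smooth muscle markers averaged 8.54 to 8.69 in the EPF arrays and 7.01 to 7.16 in the ENF arrays. Of them 4, Actg2, Myh11, Cnn1 and Acta2, were called higher in EPF, against 0.308% of all genes called in either direction. Rgs5, a pericyte marker, averaged 11.83 ± 0.50 in EPF and 8.76 ± 1.00 in ENF (SD, n = 3 each). The 11 melanocyte markers averaged 5.64 to 5.91 in EPF and 5.47 to 5.64 in ENF, none was called, and Tyr and Tyrp1 were near background in both groups. Mlana, singled out after its values were seen, measured 8.13, 9.88 and 8.05 in EPF and 6.65, 5.87 and 6.76 in ENF, without overlap. The 12 dermal papilla markers averaged 7.30 to 7.88 in EPF and 6.20 to 6.40 in ENF, and none was called. The 13 keratinocyte markers averaged 5.22 to 7.79 in EPF and 7.40 to 9.42 in ENF. Of them only Trp63 was called, lower in EPF, against 0.308% of all genes called. The part of these cell types in the Ednrb difference was not tested.

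Genes that make or remove the peptide differed in a few members. Of 11 processing and clearance genes, limma called 0 between EPF and ENF, against 0.308% of all genes. In Oral minus Cranial 0 were called higher and 1 lower, against 1.14% of all genes called in either direction. In Cranial minus Dorsal 1 was called higher and 0 lower, against 18.7%. In Oral minus Dorsal 1 was called higher and 1 lower, against 16.8%. The same counts held in Oral minus Ventral, against 14.6%, and in Cranial minus Ventral, against 17.9%. Pcsk5, a proprotein convertase, was lower in Oral than in Cranial, at 7.69 ± 0.30 against 11.13 ± 0.11 (SD, n = 3 each; difference -3.44 ± 0.37, SE, limma adjusted p = 0.00071). It was also lower in Oral than in Dorsal (-4.14 ± 0.37) and Ventral (-3.39 ± 0.37). Mme encodes neprilysin, a protease that degrades endothelin-1. Mme was higher in Cranial than in Dorsal, at 8.79 ± 0.15 against 6.62 ± 0.93 (difference 2.16 ± 0.63, limma adjusted p = 0.0361). In Oral Mme averaged 8.65 ± 0.19, also called higher than in Dorsal (2.02 ± 0.63). Both Oral (2.40 ± 0.63) and Cranial (2.54 ± 0.63) were called higher than Ventral, at 6.24 ± 1.49. The list's median difference in Cranial minus Dorsal was -0.10, beside -0.06 over all genes.

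Genes that carry or end the receptor signal were called in both directions. Of 11 RGS, GRK and arrestin genes, 2 were called higher in EPF than in ENF, against 0.308% of all genes called, Rgs2 (2.44 ± 0.32, limma adjusted p = 0.0324) and Rgs4 (1.81 ± 0.23), both of which encode proteins that shorten Gq signalling. Rgs2 averaged 9.81 ± 0.24 in EPF and 7.38 ± 0.65 in ENF. In the sites Rgs2 was lower in Oral than in Dorsal (-2.56 ± 0.30) and in Cranial than in Dorsal (-1.65 ± 0.30). Of 17 G protein and calcium release genes, 4 were called higher and 1 lower in Cranial than in Dorsal, against 18.7% of all genes called in either direction, and limma called 0 in EPF minus ENF. Itpr3, an inositol trisphosphate receptor, was higher in Cranial than in Dorsal (1.05 ± 0.20, limma adjusted p = 0.00468) and Itpr2, another, lower (limma adjusted p = 0.00827). Their list's median difference there was 0.19, beside -0.06 over all genes.

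Of 13 contractile genes, 5 were called higher in EPF than in ENF, against 0.308% of all genes called: Mylk, Ppp1r14a, Myh11, Cnn1 and Acta2, of which the last 3 are also on the mural and smooth muscle list. Mylk, myosin light chain kinase, averaged 10.19 ± 0.06 in EPF and 6.46 ± 0.20 in ENF. Ppp1r14a, which encodes an inhibitor of myosin phosphatase, averaged 8.01 ± 0.48 in EPF and 4.63 ± 0.19 in ENF (difference 3.38 ± 0.25, limma adjusted p = 0.00498). The list's median difference was 0.81, beside 0.00 over all genes. In the sites Ppp1r14a was lower in Oral than in Cranial (-1.69 ± 0.24), Dorsal (-2.26 ± 0.24) and Ventral (-3.14 ± 0.24).

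Of 10 jaw genes downstream of Edn1 in the embryo, 3 were called higher and 0 lower in Cranial than in Dorsal (Hand2, Barx1 and Dlx5), against 18.7% of all genes called in either direction. In Oral minus Dorsal 4 were called higher and 0 lower, against 16.8%, and in Oral minus Cranial 1 higher and 0 lower, against 1.14%. In Oral minus Ventral 4 were called higher and 1 lower, Hand2 (-1.07 ± 0.27), against 14.6%. The list's median difference was 0.32 in Cranial minus Dorsal, beside -0.06 over all genes, and 0.01 in Oral minus Ventral, beside -0.02. Barx1, a homeobox factor of the jaw, averaged 7.27 ± 0.12 in Oral and 6.67 ± 0.17 in Cranial (difference 0.60 ± 0.12, limma adjusted p = 0.0493), the opposite order to Edn1. Barx1 was also called higher in Cranial than in Dorsal (1.28 ± 0.12) and Ventral (1.29 ± 0.12), the same order as Edn1. Hand2, a basic helix-loop-helix factor of the lower jaw, was higher in Ventral than in Dorsal, at 7.04 ± 0.60 against 4.60 ± 0.43 (difference 2.44 ± 0.27, limma adjusted p = 0.0157). Edn1 was not called there (-0.18, 95% interval -0.82 to 0.47). Whether Edn1 had a part in the levels of these genes was not tested. Limma called 0 of the 10 in EPF minus ENF, where 0.308% of all genes were called.

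Of 9 neural crest genes of the Edn3 and Ednrb pathway, 2 were called higher and 2 lower in Cranial than in Dorsal, against 18.7% of all genes called in either direction. The list's median difference there was -0.08, beside -0.06 over all genes. Pax3, a crest and melanocyte factor, averaged 8.95 ± 0.08 in Oral and 7.04 ± 0.04 in Cranial (difference 1.92 ± 0.12, limma adjusted p = 1.28e-05). Pax3 was also higher in Oral than in Dorsal (3.68 ± 0.12), and Gfra1, a receptor for GDNF, higher in Cranial than in Dorsal (1.64 ± 0.15). Zeb2, a crest transcription factor, was lower in Cranial than in Dorsal (-1.09 ± 0.27) and in Oral than in Dorsal (-1.82 ± 0.27).

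Of 12 fibroblast genes known to respond to endothelin-1, 4 were called higher in Cranial than in Dorsal (Ptgs2, Fos, Ccn2 and Egr1) and 0 lower, against 18.7% of all genes called in either direction. In Oral minus Dorsal 3 were called higher and 2 lower, Ccl2 (-1.23 ± 0.31) and Tnc (-0.97 ± 0.24), against 16.8%. In Oral minus Ventral 4 were called higher and 2 lower, again Ccl2 (-1.41 ± 0.31) and Tnc (-1.05 ± 0.24), against 14.6%. Ptgs2, the inducible cyclooxygenase, averaged 11.54 ± 0.09 in Cranial and 6.78 ± 0.77 in Dorsal (difference 4.75 ± 0.81, limma adjusted p = 0.00302). Ptgs2 was also higher in Oral than in Dorsal (4.48 ± 0.81), where Edn1 was not called (0.61, 95% interval -0.04 to 1.25). Fos and Egr1 are also on the immediate early list. Ptgs2 is not on that list. Like most genes of that list, Ptgs2 was called higher in Oral and Cranial than in Dorsal and Ventral. Whether Edn1 or the immediate early response had a part in these levels was not tested. Ccl2, a chemokine, was lower in Oral than in Cranial (-1.57 ± 0.31, limma adjusted p = 0.0374).

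Of 21 receptors and receptor partners for other vasoactive mediators, limma called 0 in EPF minus ENF, where 0.308% of all genes were called. In Oral minus Cranial 3 were called lower, Ptger2, Ramp3 and Ptger4, and 0 higher, against 1.14% of all genes. In Cranial minus Dorsal 3 were called higher and 0 lower, against 18.7%. Ptger2, a prostaglandin E2 receptor, averaged 4.38 ± 0.15 in Oral and 6.52 ± 0.21 in Cranial (difference -2.15 ± 0.37, limma adjusted p = 0.0176).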

How the data were processed

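The authors deposited 1 column of log2 expression values per array, which per the series design text they made by RMA with quantile normalization. The sources used here name no software version and do not say whether all arrays were normalized together. Groups and replicate numbers came from the sample titles. Of 45101 deposited probe sets, 64 controls were set aside; 34945 carried 1 gene symbol, giving 18193 genes, each represented by its brightest probe set on average over 18 arrays. No dim gene was removed. limma 3.58.1 (lmFit, eBayes) in R 4.3.3 fitted EPF and ENF on 6 arrays and the 4 site groups on 12, and the test was checked on simulated data. With 3 arrays against 3, an exact permutation test cannot go below p = 0.1, so none was used, and the number of arrays limits the precision. Promoters are from RefSeq (GRCm38.p6). Named pathway genes were up to 2 called members per list, comparison and direction with the largest difference. The genes, lists and rules were chosen with earlier results of these data known. Alternatives covered a replicate block, variance settings, array weights, a filter on dim genes, quantile normalization, other probe sets and leaving out arrays. Tables were made with pandas 2.3.3 in Python 3.11.15 and plots with matplotlib 3.10.9.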

Additional observations from a re-analysis of the deposited data

How the results depend on the processing

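Counts of called endothelin genes changed as follows, with the main count first. In EPF minus ENF the count of 1 became 0 with the mean of all probe sets of a gene and without ENF array 1 and EPF array 2, which differ from their groups in Xist, and ranged from 0 to 1 when 1 array was left out (0 without EPF array 2 or 3). In Oral minus Cranial the count of 1 became 0 without any 1 of the 6 arrays and 2 when fitted on its own 6 arrays. In Cranial minus Dorsal the count of 1 became 3 with array weights and ranged from 1 to 2 when 1 array was left out (2 without Dorsal array 1). In Oral minus Dorsal the count of 0 became 2 with array weights, and 1 with an intensity trend and robust fit, with quantile normalization and with the mean of probe sets; it ranged from 0 to 2 when 1 array was left out (2 without Dorsal array 1). In Oral minus Ventral the count of 0 became 4 with array weights, 1 with quantile normalization and 1 when fitted on its own 6 arrays, and ranged from 0 to 1 (1 without Ventral array 1). In Cranial minus Ventral the count of 2 ranged from 1 to 2, with 1 without any Cranial array or Ventral array 2. Edn1 was called in all 14 settings of Cranial minus Dorsal (1.73 to 2.43) and of Cranial minus Ventral (2.10 to 2.42). Edn1 had 1 probe set, so the mean of probe sets could not change its differences. No setting checked Edn1 with another probe set. Over all alternatives the sign turned 39 times, in 17 of the 35 differences, and 36 of these turns were between values called on neither side, such as Ednrb in Ventral minus Dorsal (-0.12, up to 0.81 without Ventral array 1). The other 3, called on 1 side, were Ednrb in EPF minus ENF with its dimmest probe set (-0.0812), Ednrb in Cranial minus Ventral without Ventral array 1 (-0.735, the lower end of a range up to 0.6649 when 1 array was left out), and Edn3 in Cranial minus Ventral with 1 further probe set (0.0036). The causes were not tested. Same-numbered arrays did not pair: 4 of 21 correlations of their deviations passed 0.1 (range -0.38 to 0.30). With the replicate block the counts of called endothelin genes did not change (1 in EPF minus ENF and 2 in Cranial minus Ventral), while called genes overall in EPF minus ENF numbered 21 against 56; 5 of 18 arrays correlated best with their own number. Over all settings, called genes ranged from 4 to 460 in EPF minus ENF (56), 111 to 1926 in Oral minus Cranial (207), 0 to 952 in Ventral minus Dorsal (5), 1242 to 10113 in Cranial minus Dorsal (3393), 1065 to 8963 in Oral minus Dorsal (3065), 1420 to 7724 in Oral minus Ventral (2665) and 1641 to 8854 in Cranial minus Ventral (3251), the upper ends in the sites with array weights. Signal near background limits Edn2 in the sites.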
